A study of Mus musculus with 9 samples.

Results

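Mouse NIH 3T3 fibroblasts treated with cytochalasin D were compared with the same cells treated with latrunculin B together with cytochalasin D. The comparison took every array whose agent label names 1 of these treatments, 3 arrays a group and so 6 of the 9 arrays of the series, and paired them by the replicate numbers 1, 3 and 7 in their titles. Of the 45037 probe sets other than controls, 27010 were bright enough to be tested, and those with 1 gene symbol covered 12651 genes. NIH 3T3 is an established line from mouse embryos. All cells were serum-starved, and cycloheximide (3 µg/ml, 2 h), which blocks protein synthesis, was present in every group, so the differences below were measured under that block. Cytochalasin D was given at 2 µM for 90 min in both groups, and the double-drug group also received latrunculin B at 5 µM for 90 min. Sample titles of the double-drug group mention only latrunculin B. Its agent label, followed here, and the design text give both drugs. The 3 control arrays, from cells with cycloheximide and neither actin drug, give a reference level beside each gene. They also enter the spread and the replicate terms of the test. The series design describes the replicates of a condition as independent and biological.

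Actin exists in cells as monomer and as filament. Myocardin-related transcription factors (MRTFs) bind actin monomer, which keeps them from acting on serum response factor (SRF), and SRF binds a short sequence called the CArG box in genes of the actin cytoskeleton and in some immediate-early genes. Cytochalasin D caps filaments and also takes monomer away from MRTF, whereas latrunculin B binds monomer in a form that MRTF still holds. The pair of treatments therefore asks which transcripts that cytochalasin D changes are sensitive to latrunculin B.

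Of the transcripts that differed, most were lower when latrunculin B was added. With cytochalasin D alone, 84 probe sets of 64 genes were higher than in the double-drug group, 0.311% of those tested. Only 15 probe sets of 13 genes were lower, 0.0555% of those tested. Among called genes, taken by their brightest probe set, the largest rises were in this order. They were the muscle-type actins Acta1 and Actg2, the desmosomal protein Pkp2, Lurap1l, Arc, Gcnt2 and the LIM protein Fhl1. The 84 had a median log2 difference of 1.08 (range 0.20 to 4.0), and 46 of them differed at least 2-fold. The 15 had a median of -0.35 (range -0.86 to -0.22), and 0 differed 2-fold. Values of the 2 groups did not overlap for 82 of the 84 and for 10 of the 15. The calls were made on the same values, so this is no separate support. Over all genes, by 1 probe set each, 3.24% were higher and 3.42% lower without overlap. In the test (limma over all 9 arrays with the replicate number as a block, 2-sided, Benjamini-Hochberg adjusted p under 0.05) the smallest adjusted p was 0.00707. At an unadjusted p under 0.05 it gave 1413 higher and 1273 lower, so the imbalance stood among the called probe sets and not among weak differences. Differences are on the scale of log2(intensity + 16), which makes those of dim probe sets smaller. A change in RNA per cell and a change in the share of cells that express a gene cannot be told apart in bulk RNA.

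The number of calls rested on nearly every array. The counts are from limma with the replicate block. On the 6 compared arrays alone it called 0 (smallest limma adjusted p 0.0806, 2896 at an unadjusted p under 0.05). It called 86 without control replicate 1, 6 without control replicate 3, 37 without control replicate 7 and 1 without cytochalasin D replicate 1. It called 0 without cytochalasin D replicate 3 (2259 at an unadjusted p under 0.05) or 7 (2812), and 0 without double-drug replicate 1 (2080), 3 (1832) or 7 (2391). Adjusted p-values below are therefore those of the full set of arrays. Without the pairing of replicates, 67 were higher (0.248% of those tested) and 3 lower (0.0111%), and 39 higher and 2 lower were called both with and without the block.

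**Figure D1:**
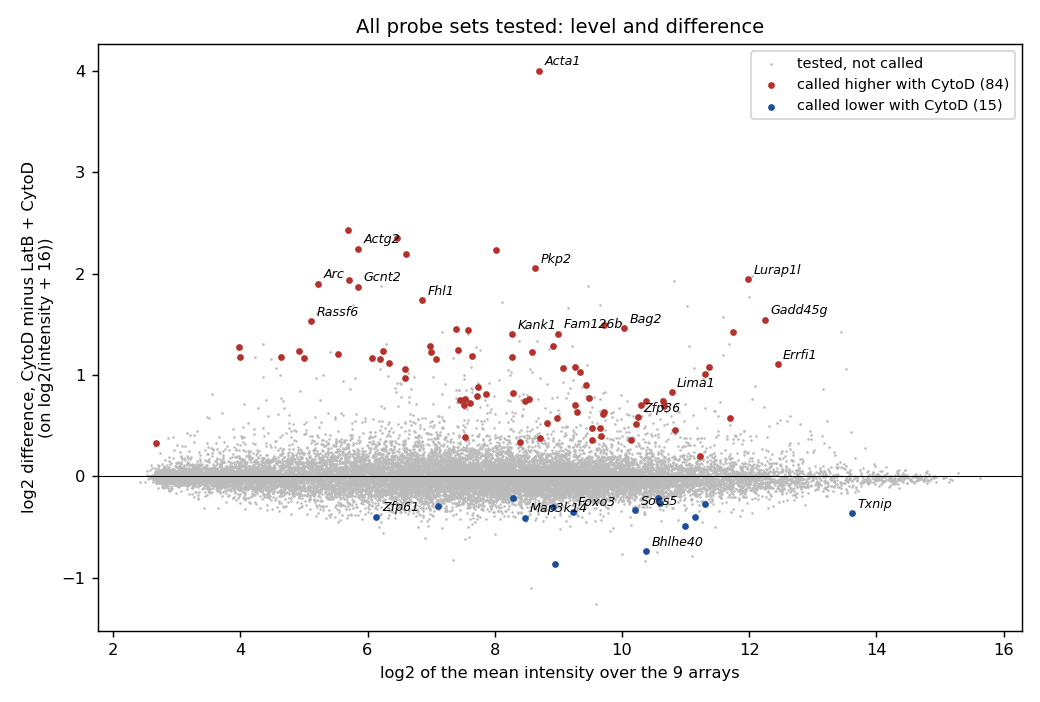
Each point is 1 of the 27010 probe sets tested, with log2 of its mean intensity over the 9 arrays on the x axis and the log2 difference between cytochalasin D and the double-drug group on the y axis. The 84 called higher (red) reach 4.0 and the 15 called lower (blue) reach -0.86, and called probe sets lie at dim as well as bright levels.

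The pairs are described over all probe sets, since the called ones were chosen on them. Over all probe sets tested, the SD of the difference within a pair was 0.193, 0.225 and 0.182, and the median difference over all was -0.01. At least 2-fold higher with cytochalasin D alone were 104, 142 and 97 probe sets in pairs 1, 3 and 7, against 4, 9 and 2 at least 2-fold lower. These counts come from single pairs and carry no test.

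The double-drug values of the called probe sets were also set beside the control values. For 51 of the 84 probe sets called higher, all 3 double-drug values lay above all 3 control values. For 31 the double-drug and control values overlapped, and for 2, the cell-cycle regulator Gadd45g and the sphingosine-1-phosphate receptor S1pr3, they lay below control. Of the 15 called lower, 3 lay above control, 7 overlapped it and 5 lay below it. The same counts over all probe sets tested were not made, so no background share stands beside these.

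Promoter sequence is shown first because several of the genes described next hold a CArG box near their start. The box (CC, then 6 bases of A or T, then GG, a sequence that reads as the same pattern on both strands) was searched in windows from 250 bases before to 50 bases after the start of each gene in RefSeq, build GRCm38.p6. Of the 64 genes called higher, 52 had a window and 13 of these held a box, 25%. Of the 13 genes called lower, 11 had a window and 0 held a box. Among the genes tested the share was 162 of 10212 windows, 1.59%, and over all RefSeq windows searched 535 of 32851, 1.63%. Of the 46 genes listed as MRTF-SRF targets, 38 had a window and 11 held a box, 28.9%. The search was made with these results known, the shares carry no test, and a match is not a measured binding site.

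The windows of 6 of these genes are given below, 60 bases each, read 5′ to 3′ on the gene's strand, with the CArG box in capitals.
Acta1 (chr8:123894814-123894873, minus strand): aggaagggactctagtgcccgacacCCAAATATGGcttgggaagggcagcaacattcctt
Fhl1 (chrX:56779556-56779615, plus strand): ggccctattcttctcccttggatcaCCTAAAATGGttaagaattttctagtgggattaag
Lima1 (chr15:99820162-99820221, minus strand): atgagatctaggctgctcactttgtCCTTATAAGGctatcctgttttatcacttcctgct
Lurap1l (chr4:80910483-80910542, plus strand): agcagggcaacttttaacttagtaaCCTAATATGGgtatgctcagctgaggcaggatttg
Srf (chr17:46556190-46556249, minus strand): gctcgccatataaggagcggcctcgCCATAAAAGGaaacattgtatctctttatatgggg
Zfp36 (chr7:28379252-28379311, minus strand): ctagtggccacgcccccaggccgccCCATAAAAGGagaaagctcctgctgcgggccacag

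Each box lies upstream of the start in the annotation. Its first base was 73 bases before the start in Acta1, 102 in Fhl1, 47 in Lima1, 178 in Lurap1l, 62 in Srf and 58 in Zfp36. Srf and Zfp36 have the same 10 letters in the box. The Srf window also holds, in lower case, a second box whose first base is 82 bases before the start. The other called genes with a box were Cbr2, Pitpna, Prkab2, Prr14, Rhoj, Stbd1 and Zfp644. The windows of the genes called higher held a TEAD motif (GGAATG or CATTCC) in 15.4% and an AP-1 motif (TGANTCA, either strand) in 1.92%, against 14.5% and 6.64% of the genes tested. In the list of MRTF-SRF targets the shares were 39.5% (15 of 38) for TEAD and 7.89% (3 of 38) for AP-1. For the genes called lower the TEAD share was 27.3% (3 of 11) and the AP-1 share 9.09% (1 of 11).

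**Figure D2:**
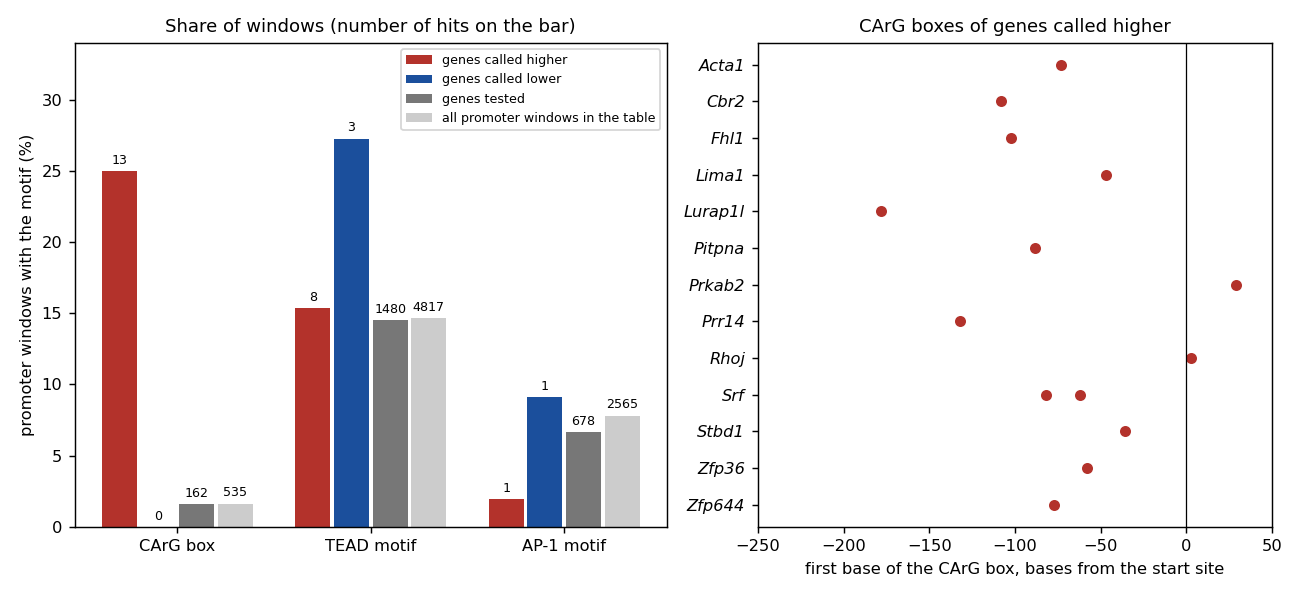
Left, the percent of promoter windows that hold a CArG box, a TEAD motif or an AP-1 motif, for the genes called higher, those called lower, all genes tested and all windows of the table, with the number of windows on each bar. Right, the first base of each CArG box in the 13 genes called higher that hold one, in bases from the start site. The CArG bar of the genes called higher stands at 25% and that of the genes tested at 1.59%.

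Among the actins, the isoforms named for muscle differed and the cytoplasmic ones did not pass the test. Acta1, skeletal muscle alpha-actin, had intensities of 799, 995 and 1710.1 with cytochalasin D in replicates 1, 3 and 7, against 35.4, 70.4 and 62.3 with both drugs. Control cells gave 18.7, 20.4 and 18.5, so every double-drug array was above every control array and far below every cytochalasin D array. The group means were 1168 ± 479 and 56.0 ± 18.3 (SD, n = 3), a 20.9-fold ratio, and the log2 difference was 4.0 ± 0.25 (SE, limma adjusted p = 0.0271). Actg2, the gamma-actin of enteric smooth muscle, had 159.5, 147 and 125 against 20.03, 21.1 and 12.5. Its double-drug values overlapped the control values of 15.4, 10.4 and 10.4. The log2 difference of Actg2 was 2.24 ± 0.07 (SE, limma adjusted p = 0.00707).

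Acta2, smooth muscle alpha-actin, was measured by 3 probe sets. The brightest had 19954, 22063 and 19808 with cytochalasin D, 9498, 11177 and 9059.7 with both drugs, and 5884, 5361 and 3634 in control, and did not pass (log2 difference 1.06, 95% interval 0.69 to 1.42, limma adjusted p = 0.0871). The dimmer pair of probe sets did pass. One of them had 86.1, 216 and 116 against 10.1, 15.7 and 8.11 (log2 difference 2.43, limma adjusted p = 0.0462), and the other had 36.4, 43.6 and 26.2 against 6.61, 6.40 and 6.42, under the array medians (1.18, limma adjusted p = 0.0443). Actin genes share much of their coding sequence, so probe sets of 1 isoform can take signal from another, and the extent was not tested. Cytoplasmic beta-actin, Actb, had 18961, 21240.5 and 18774 against 18263, 18883 and 17924, with values that overlapped (log2 difference 0.10, 95% interval -0.03 to 0.23, limma adjusted p = 0.642). Its dimmer probe set gave -0.25 (interval -0.91 to 0.40, limma adjusted p = 0.833). The Actb control probe sets of the array, left out of the test, were higher with cytochalasin D without overlap. The 3′ one had 29133, 31444 and 29052 against 26597, 28269 and 26845. The 5′ one had 19794, 21369 and 17354 against 16506, 16952 and 14063. Actg1, cytoplasmic gamma-actin, gave a log2 difference of 0.07 (interval -0.03 to 0.16, limma adjusted p = 0.663). Of the 5 actins tested, by their brightest probe sets, 2 passed and 4, all but Actb, did not overlap between the groups.

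**Figure D3:**
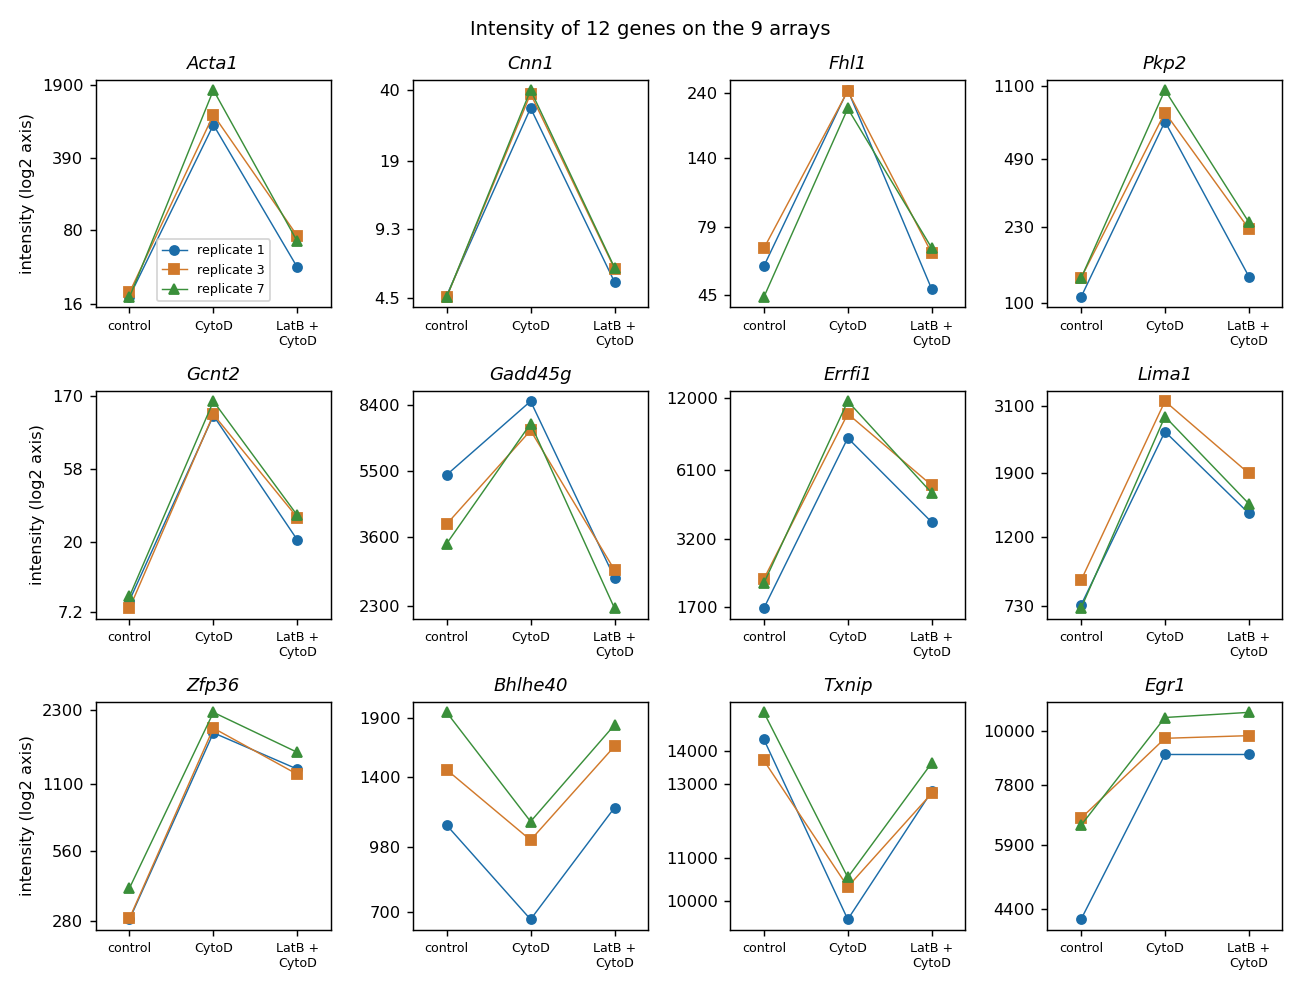
Intensity (log2 axis, a range of its own in each panel) of 12 genes in control, cytochalasin D (CytoD) and latrunculin B plus cytochalasin D (LatB + CytoD), with 1 line per replicate number. With latrunculin B added, Fhl1 lies at the control level, Cnn1 lies under the array median as in control, Acta1, Errfi1, Lima1 and Zfp36 stay above it, Gadd45g goes below it, Bhlhe40 and Txnip are lowest with cytochalasin D, and Egr1 is alike in both drug groups.

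Proteins that bind and cross-link actin filaments formed the next group. Cnn1, calponin, was dim: 33.0, 38.3 and 39.8 with cytochalasin D, against 5.34, 6.14 and 6.21 with both drugs and 4.64, 4.56 and 4.56 in control. The double-drug and control values lay under the median intensity of every array, 7.57 to 7.84, and are not ranked against each other. Its log2 difference was 1.27 ± 0.04 (SE, limma adjusted p = 0.00707), which depends on the added constant of 16, and Cnn1 was above the level asked of a tested probe set on the 3 cytochalasin D arrays and 1 double-drug array. Lima1, also called EPLIN, which cross-links filaments, had 2569.6, 3201 and 2865 against 1424, 1900.2 and 1526. Control had 734, 878 and 718, so the double-drug values remained above it. The log2 difference of Lima1 was 0.83 ± 0.05 (SE, limma adjusted p = 0.0234), and 4 of its 5 probe sets passed. Nexn, an F-actin binding protein of muscle, had 231, 311 and 388 against 90.3, 142 and 129 (log2 difference 1.25, limma adjusted p = 0.0467).

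Several large differences in this group missed the threshold. Myl9, a regulatory light chain of myosin II, had 1588, 1829.7 and 1287 against 413, 535 and 313, with control at 172, 142 and 62.9. Its log2 difference was 1.88 (95% interval 1.36 to 2.39, limma adjusted p = 0.0559). Tagln, transgelin or SM22, had 4051, 4654 and 4519 against 1254, 1693 and 1182, and 719.9, 490.0 and 238 in control (log2 difference 1.68, interval 0.80 to 2.57, limma adjusted p = 0.197). In both genes the control replicates spread widely, and the groups treated with drug did not overlap. Tpm1, a tropomyosin, gave 1.31 (interval 0.81 to 1.81, limma adjusted p = 0.110). For Tpm2, 1 of 4 probe sets passed, with 169.7, 277 and 299 against 71.0, 108 and 128 (log2 difference 1.16, limma adjusted p = 0.0295). Of the 12 tropomyosin, calponin and transgelin genes tested, 1 passed and 8 did not overlap, with a median log2 difference of 0.32. Of the 13 cross-linkers, 1 passed (Lima1) and 8 did not overlap, with a median of 0.29. Of the 11 myosin II genes, 0 passed in limma with or without the block (5 were higher and 0 lower at an unadjusted p under 0.05), 3 did not overlap, and their median was 0.04.

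For comparison, over all 12651 genes with 1 probe set each (the brightest), 0.411% were called higher and 0.0711% lower, the 3 cytochalasin D values lay above all 3 double-drug values in 3.24% and below them in 3.42%, and the median was -0.01. Genes of actin turnover had medians near that of all genes. At an unadjusted p of limma under 0.05, 5.15% of all genes were higher and 6.09% lower. The shares were 18.5% and 0% for monomer binding, severing and capping, and 15.4% and 0% for the Arp2/3 list. Of 27 genes for monomer binding, severing and capping, 0 passed in limma (5 were higher and 0 lower at an unadjusted p under 0.05, and 1 passed without the block), 5 did not overlap, and the median was 0.06. Dstn, destrin, which severs filaments, was the 1 that passed without the block (8363, 9278 and 9094 with both drugs, 11132, 12076 and 11976 with cytochalasin D, log2 difference 0.40, limma adjusted p = 0.0831 with the block and 0.0488 without). Of 13 genes of the Arp2/3 complex and its activators, which nucleate branched filaments, 0 passed in limma with or without the block (2 were higher and 0 lower at an unadjusted p under 0.05), 1 did not overlap, and the median was -0.04.

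Adhesion and LIM domain genes followed. Fhl1, a LIM-only protein of muscle, had 246, 244 and 211 with cytochalasin D, against 47.3, 63.6 and 66.4 with both drugs and 57.1, 66.2 and 44.2 in control. The double-drug values overlapped the control values, and the log2 difference was 1.74 ± 0.14 (SE, limma adjusted p = 0.0350). Lims2, a LIM protein of the integrin-linked kinase complex, had 45.8, 69.2 and 68.4 against 15.1, 17.5 and 16.8 (log2 difference 1.23, limma adjusted p = 0.0331), overlapping its control values of 11.4, 16.8 and 12.4. Kank1, which binds talin at the rim of adhesions, had 528, 515 and 617 against 186, 197 and 214, with 158, 201 and 179 in control (log2 difference 1.40, limma adjusted p = 0.0271). Itga5, the alpha chain of the fibronectin receptor, had 578, 580.3 and 698 against 236, 216 and 252 and did not pass (log2 difference 1.34, interval 0.96 to 1.71, limma adjusted p = 0.058). Vcl, vinculin, which links integrin adhesions to actin, had 5482, 7261 and 8811 against 3755, 4644 and 4826, without overlap, and also did not pass (0.68, interval 0.29 to 1.08, limma adjusted p = 0.239). Of 27 focal adhesion genes 0 passed in limma with the block and 1 without it (Itga5). At an unadjusted p under 0.05, 11 were higher and 1 lower, 7 did not overlap, and the median was 0.18. Of 17 LIM domain genes 1 passed and 6 were higher without overlap, against 1 lower, with a median of 0.04.

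Pkp2, plakophilin 2, a plaque protein of desmosomes, was the third largest rise among genes taken by their brightest probe set. Its intensities were 741, 819 and 1049.7 with cytochalasin D and 134, 227 and 244 with both drugs, against 106, 131 and 131 in control. The double-drug values were above control by less than a doubling and the cytochalasin D values several-fold above both. The log2 difference was 2.05 ± 0.13 (SE, limma adjusted p = 0.0271), and 2 of its 3 probe sets passed. The other 12 desmosome and junction genes tested did not pass, 0 of them lay above the double-drug values without overlap, and the median of the 13 was -0.01. Syde2 had 809.8, 808 and 929 with cytochalasin D against 298, 366 and 350.1 with both drugs (log2 difference 1.29, limma adjusted p = 0.0350).

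**Figure D4:**
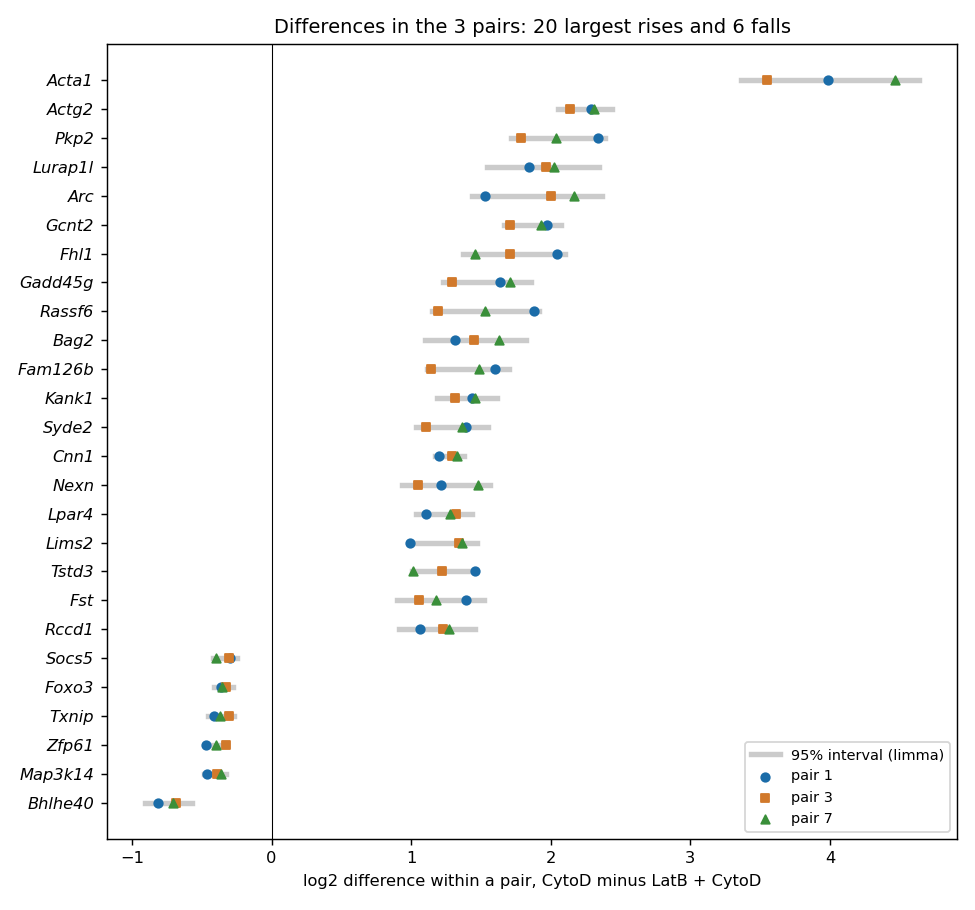
Log2 difference between cytochalasin D and the double-drug group in each of the 3 pairs, for the 20 largest rises and the 6 falls that met the same rule, with the 95% interval of limma as a grey bar. Every point of a gene lies on 1 side of 0, as the choice of genes fixes, from Acta1 at 4.0 on average to Bhlhe40 at -0.74.

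SRF itself was measured by 2 probe sets. The brighter had 1208, 1399.6 and 1817 with cytochalasin D, 639, 896 and 945 with both drugs, and 152, 209 and 199.8 in control. Its log2 difference was 0.82 (95% interval 0.60 to 1.05, limma adjusted p = 0.055), and the double-drug values remained several-fold above control. The dimmer one had 199, 252 and 316 against 74.6, 116 and 109 and passed (1.23, limma adjusted p = 0.0413). The cofactor genes Mrtfa and Mrtfb gave differences of 0.07 (interval -0.29 to 0.42, limma adjusted p = 0.936) and 0.14 (interval -0.03 to 0.30, limma adjusted p = 0.584). Of the 12 genes for SRF and its cofactors, counted with 1 probe set each, 0 passed in limma with the block and 1 without it (Mical2), while 4 were higher and 0 lower at an unadjusted p under 0.05.

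Across the list of MRTF-SRF targets, 44 of 46 genes were tested and 41 had a difference above 0. With the block, 5 were called (Acta1, Actg2, Cnn1, Fhl1 and Lima1) and 0 fell, and without the block 10 were called, where 0.316% of all genes were called higher. The 10 were Acta1, Actg2, Ankrd1, Ccn2, Cnn1, Csrp1, Dstn, Fhl1, Itga5 and Tuft1. Cnn1, called both ways, met the level asked of a tested probe set mainly through its cytochalasin D arrays. The values did not overlap for 32 of the 44, all of these higher with cytochalasin D alone, and the median log2 difference was 0.64. The list was drawn up with results of these arrays known and is not independent evidence of its direction. Ankrd1, a nuclear and sarcomeric ankyrin repeat protein, had 7708, 10009.7 and 8999.5 against 2085, 2610.1 and 2058, with 1855, 1449 and 1063 in control (log2 difference 1.98, interval 1.45 to 2.51, limma adjusted p = 0.0534). Ccn2, connective tissue growth factor, had 17821, 20848 and 23420.0 against 7107, 7752 and 8214 (1.42, interval 0.93 to 1.91, limma adjusted p = 0.086).

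**Figure D5:**
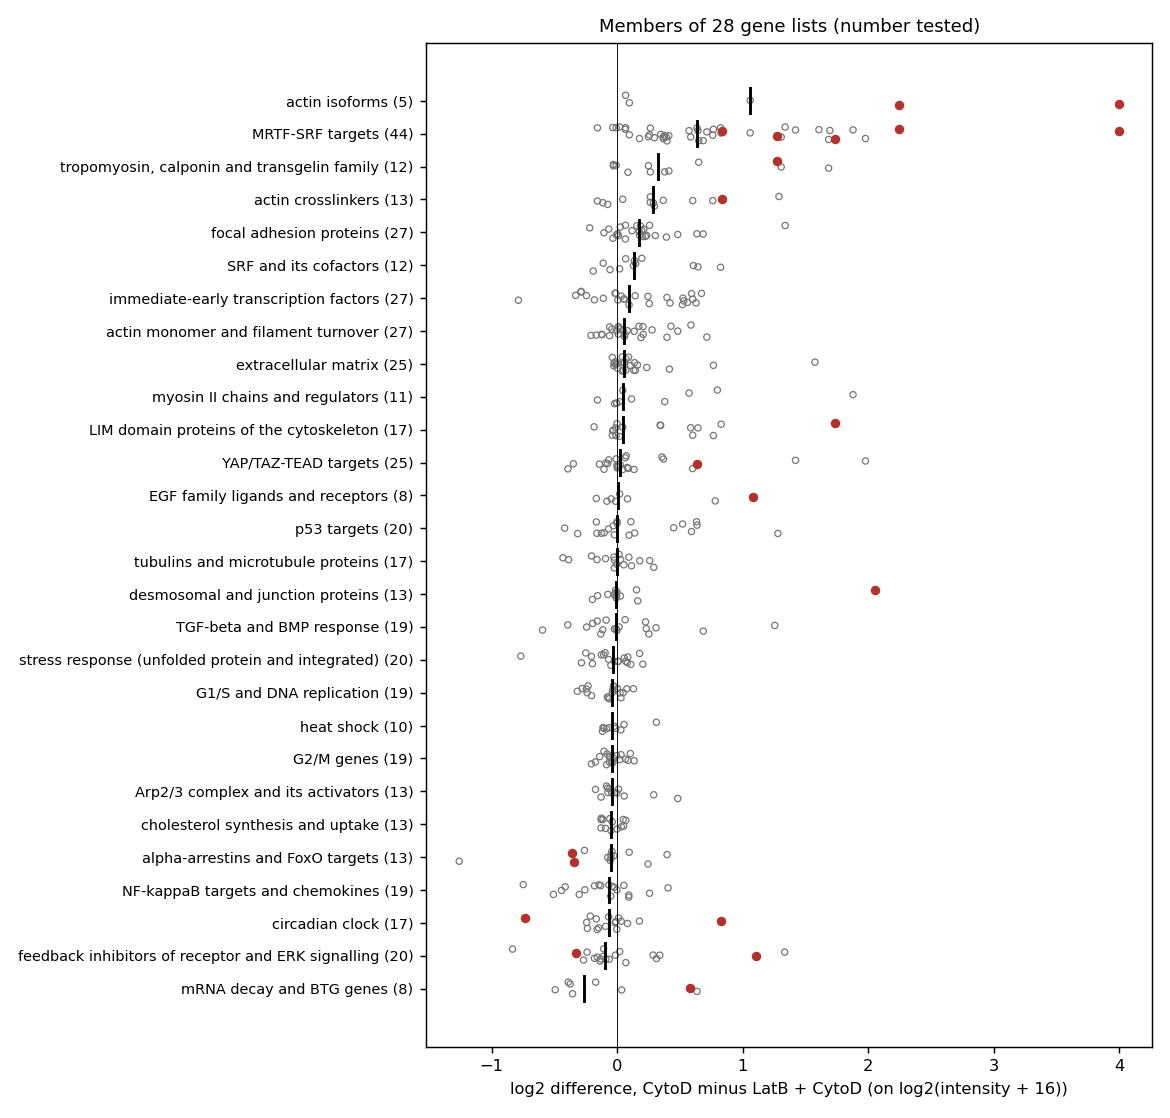
Log2 difference of each tested member of 28 gene lists, 1 point per gene, with called members filled and the median of each list as a black bar. The actin isoforms (median 1.06) and the MRTF-SRF targets (0.64) have the highest medians, and the other medians run from -0.26 (mRNA decay and BTG genes) to 0.32.

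Ankrd1 and Ccn2 are also on the list of YAP/TAZ-TEAD targets, a separate mechanosensitive pathway. Of the 25 genes of that list 1 passed, Crim1, a membrane protein that binds bone morphogenetic proteins (log2 difference 0.63, limma adjusted p = 0.0350), whose values overlapped between the groups because its replicates differed. Without the block Crim1 did not pass. Its other probe set gave 0.38 (interval -0.14 to 0.89, limma adjusted p = 0.642), lower with cytochalasin D in pair 1. In the list, the values of 4 genes were higher and of 1 lower without overlap, and the median was 0.02. Ccn1, also a target of this pathway, had 10875, 11066 and 12725 against 9022, 8135 and 9694, with control at 2846, 2424 and 2993. The difference of 0.37 (interval 0.24 to 0.50) had a limma adjusted p of 0.0881. In that probe set, the brightest, the double-drug values lay nearer to cytochalasin D. The same held for the means of another bright one: 9914 with cytochalasin D, 6879 with both drugs and 1700 in control. It did not pass (0.55, limma adjusted p = 0.434). In a dimmer pair of the 4 Ccn1 probe sets, means with cytochalasin D were 300.0 and 324. Their double-drug means lay nearer to control (169 against 133, and 175 against 139). The differences of 0.86 and 0.92 did not pass (limma adjusted p = 0.253 and 0.162).

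No immediate-early transcription factor on the list passed the test, and their differences ran from -0.79 to 0.67. Egr1 had 8967, 9661 and 10634 with cytochalasin D and 8967, 9781 and 10890.3 with both drugs, while control had 4192, 6684 and 6469. Both drug groups lay above control and overlapped each other, and the log2 difference of -0.02 had a 95% interval from -0.33 to 0.29 (limma adjusted p = 0.986). That interval leaves out a difference of the size seen for Acta1 or Pkp2. Fos had 6341, 8073 and 11055 against 4238, 5408 and 8185, with overlap (0.53, interval -0.05 to 1.11, limma adjusted p = 0.545). Junb (0.52, interval 0.26 to 0.79, limma adjusted p = 0.179) and Ier2 (0.40, interval 0.20 to 0.59, limma adjusted p = 0.175) were higher on each cytochalasin D array than on any double-drug array and did not pass. Of the 27 genes of this list 0 passed in limma with or without the block (8 were higher and 4 lower at an unadjusted p under 0.05). Without overlap, 5 were higher and 1 lower, against 3.24% and 3.42% of all genes, and the median was 0.09. Zfp36, tristetraprolin, which binds AU-rich messages and speeds their decay, is induced with this class and did pass. Its values were 1826, 1913 and 2239 against 1272, 1208 and 1503, with 285, 288 and 389 in control (log2 difference 0.58 ± 0.05, SE, limma adjusted p = 0.0350). Most of its level above control therefore remained with both drugs. Without the block Zfp36 did not pass (limma adjusted p = 0.472). Its difference was close in size to those of Fos and Junb.

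Genes of receptor signalling moved in both directions. Errfi1, a feedback inhibitor of the EGF receptor, had 8249, 10342 and 11630.2 against 3759, 5302 and 4938, with control at 1682, 2211 and 2125. The log2 difference was 1.11 ± 0.06 (SE, limma adjusted p = 0.0175), both of its probe sets passed, and the double-drug values stayed above control. Ereg, epiregulin, a ligand of that receptor, had 1144, 863 and 1129 against 595, 407 and 459 (log2 difference 1.08, limma adjusted p = 0.0413). It was 1 of 8 EGF family ligands and receptors tested to pass, and Hbegf did not (0.78, interval 0.56 to 1.0, limma adjusted p = 0.0596). Dusp5, a phosphatase of ERK, had 765, 774 and 873 against 268, 309 and 355 and did not pass (1.33, interval 0.87 to 1.79, limma adjusted p = 0.0871). Without the block Dusp5 passed (limma adjusted p = 0.0384). The brighter Errfi1 probe set then did not (limma adjusted p = 0.136), and the other Errfi1 probe set did (limma adjusted p = 0.0310). Of 20 feedback inhibitors 1 passed higher (Errfi1) and 1 lower (Socs5), and 4 were higher and 5 lower without overlap, with a median of -0.10.

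The remaining large rises came from varied families. Lurap1l had 8659, 9021 and 8115 against 2398, 2302 and 1983, with 1790.1, 1254 and 970.4 in control (log2 difference 1.94, limma adjusted p = 0.0350). Only 1 of its 3 probe sets passed. A dimmer one had 168, 192 and 141 against 37.1, 29.5 and 33.9 (1.88, limma adjusted p = 0.0523). The dimmest gave 0.12 (limma adjusted p = 0.751). Arc, an immediate-early gene of neurons that acts at synapses, was low but distinct: 63.8, 84.3 and 134 against 11.6, 9.04 and 17.5 (1.90, limma adjusted p = 0.0455). Gcnt2, a glycosyltransferase that branches poly-lactosamine chains, had 128, 129.8 and 157 against 20.7, 28.6 and 29.6, with control under 10 (1.87, limma adjusted p = 0.0133), and only 1 of its 6 probe sets passed.

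Gadd45g differed from the rest in its control level. It had 8617, 7138 and 7456 with cytochalasin D, 2765, 2908 and 2273 with both drugs, and 5363, 3906 and 3445 in control. Every double-drug value was thus below every control value, and every cytochalasin D value above (log2 difference 1.54 ± 0.12, SE, limma adjusted p = 0.0350). Bag2, a co-chaperone of Hsp70, had 1729, 2182 and 2087 against 687, 790.5 and 665 (1.46, limma adjusted p = 0.0455). Lpar4, a receptor for lysophosphatidic acid, had 112, 143 and 143 against 43.7, 47.6 and 49.5, the latter at its control level of 47.3 to 49.5 (1.24, limma adjusted p = 0.0271). Fst, follistatin, which binds activin, had 99.2, 70.0 and 77.8 against 27.9, 25.3 and 25.5 (1.21, limma adjusted p = 0.0495). The other members of the 20 largest rises were Rassf6 (1.53), Fam126b (1.41), Tstd3 (1.23) and Rccd1 (1.19), with adjusted p-values of limma from 0.0328 to 0.0455.

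Some further called genes, picked after their values were seen, act in signalling and protein folding. Dnajb4, a co-chaperone of the Hsp40 family, passed with both probe sets, and the brighter had 4232, 5105 and 5129.8 against 2830.4, 3408 and 3439.6 (log2 difference 0.58, interval 0.53 to 0.63, limma adjusted p = 0.00707). Irak2, a kinase of interleukin-1 signalling, had 674, 565 and 514 against 402, 317 and 308 (0.75, limma adjusted p = 0.0133). Ptger4, a prostaglandin E2 receptor, had 277, 221 and 205 against 94.1, 73.7 and 90.9 in 1 of its 2 probe sets (1.29, limma adjusted p = 0.0455). S1pr3 had 2296, 2072 and 1976 against 1515, 1567 and 1502, with 1905, 1889 and 1795 in control, a second case of double-drug values under control (0.46, limma adjusted p = 0.0455). Jag1, a Notch ligand, gave 0.38 (limma adjusted p = 0.0133) and Bok, a Bcl-2 family member, 1.06 (limma adjusted p = 0.0316). Without the block S1pr3 and Bok passed. Jag1 (limma adjusted p = 0.905), Irak2, Ptger4 and the brighter Dnajb4 probe set then did not.

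Falls were few and small. Only 6 genes were called lower with their brightest probe set and without overlap, where 12 had been asked for. Bhlhe40, a repressor of the circadian clock, had 675, 1015 and 1116 with cytochalasin D, 1198, 1643 and 1834 with both drugs, and 1095, 1456 and 1956 in control. The double-drug values lay in the control range and the cytochalasin D values mostly under it (log2 difference -0.74 ± 0.06, SE, limma adjusted p = 0.0413). Without the pairing its limma adjusted p was 1.0. Txnip, an inhibitor of thioredoxin and of glucose uptake, had 9593, 10318 and 10539 against 12779, 12723 and 13619, with 14360.1, 13696 and 15255 in control (-0.36 ± 0.04, SE, limma adjusted p = 0.0462). Its double-drug values in that probe set lay between those of the other groups. The other Txnip probe set gave -0.05 (interval -0.49 to 0.40, limma adjusted p = 0.967), higher with cytochalasin D in pair 3.

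Foxo3, a forkhead transcription factor, had 465, 492 and 550.5 against 600.2, 622 and 707, the latter overlapping the control values of 577, 652 and 717 (log2 difference -0.35, limma adjusted p = 0.0331). Map3k14, the NF-kappaB-inducing kinase, had 256, 270.1 and 303 against 359, 359.8 and 393 (-0.41, limma adjusted p = 0.0350). Socs5, a suppressor of cytokine signalling, had 963, 959.8 and 920.0 against 1188, 1188 and 1214 (-0.33, limma adjusted p = 0.0495), and Zfp61 gave -0.40 (limma adjusted p = 0.0331). Foxo3, Map3k14 and Socs5 passed in 1 of 2 probe sets, and the other ones gave -0.15, -0.20 and -0.11 (limma adjusted p = 0.399, 0.596 and 0.813), that of Socs5 higher with cytochalasin D in pair 3. In the probe sets of Map3k14, Socs5 and Txnip that passed, both drug groups were below control. Larger falls that did not pass were Arrdc3, an alpha-arrestin (284, 169 and 263 against 917, 459 and 462, with 1585, 1293 and 1485 in control, -1.26, interval -1.78 to -0.74, limma adjusted p = 0.126), and the transcription factor Klf10 (-0.79, interval -1.0 to -0.58, limma adjusted p = 0.0538). The chemokine Ccl2 had 606, 879.9 and 688 against 996, 1431 and 1255 and did not pass either (-0.75, interval -1.20 to -0.30, limma adjusted p = 0.258).

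Among the other probe sets called lower, picked here after their values were seen, Socs3, a suppressor of cytokine signalling, had the largest difference. In 1 of its 3 probe sets it had 195, 223 and 436 with cytochalasin D against 380.0, 466 and 703 with both drugs, lower in each pair although the groups overlapped (log2 difference -0.86, limma adjusted p = 0.0413). H1f2, a linker histone, had 1064, 1128 and 1542 against 1527, 1595 and 2116 in 1 of 2 probe sets, with 2806, 2912 and 3679 in control (-0.49, limma adjusted p = 0.0271). Mcl1, a survival protein of the Bcl-2 family, had 2148, 2508 and 2549.6 against 2569.9, 3007 and 3138 in 1 of 6 probe sets, and its double-drug values were above control (-0.27, limma adjusted p = 0.0356).

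The other lists held few or no calls. Of the 13 alpha-arrestins and FoxO targets, 2 were lower (Foxo3 and Txnip, 1 probe set of 2 in each) and 0 higher, 2 were higher and 3 lower without overlap, and the median was -0.05. Of the 17 clock genes, 1 was higher, Nfil3 (log2 difference 0.82, limma adjusted p = 0.0419), and 1 lower, Bhlhe40. Of 8 genes of mRNA decay and the BTG family, 1 was higher (Zfp36), although the median of the list was -0.26. In the lists of 19 NF-kappaB targets and chemokines, 25 matrix genes, 19 TGF-beta and BMP response genes, 20 p53 targets, 20 stress response genes, 10 heat shock genes, 13 cholesterol genes, 17 tubulin and microtubule genes, 19 G2/M genes and 19 G1/S genes, 0 were called by limma in either direction with or without the block. At an unadjusted p under 0.05, 22 of their 180 genes were higher (12.2%, against 5.15% of all genes) and 31 lower (17.2%, against 6.09%). Without overlap, 4 p53 targets were higher and 1 lower, 1 stress response gene was higher and 4 lower, 4 matrix genes were higher and 0 lower, and 2 TGF-beta and BMP response genes were higher and 3 lower. The tubulin list had 2 higher and 1 lower, the NF-kappaB and heat shock lists 1 in each direction, the cholesterol list 2 lower, the G1/S list 1 lower and the G2/M list 0. Their medians ran from -0.07 (NF-kappaB) to 0.06 (matrix).

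Most fibroblast markers were present: 12 of 15 reached 16 on at least 1 array, and Fap, Fbln1 and Lum did not. Vim ranged from 21939 to 23786 and Col1a1 from 6088 to 8840 over the 9 arrays, and the summed intensity of the 15 fibroblast markers was 107687 to 115247 with cytochalasin D, 111246 to 113873 with both drugs and 111177 to 117573 in control. The defining markers of leukocytes (Ptprc), endothelium (Pecam1), adipocytes (Adipoq) and skeletal muscle (Myod1) were at most 5.27 on any array. Epcam, of epithelium, was at most 16.9. Other members of these lists were above that: the leukocyte markers Cd14 (133 to 218), Lyz2 (66.0 to 174) and Csf1r (40.02 to 44.8), and the adipocyte marker Lpl (1738 to 2934). The epithelial marker Krt14 and the endothelial markers Flt1 and Eng also reached 16 on at least 1 array. Below 16 on every array were 9 of 12 leukocyte, 10 of 12 epithelial, 9 of 11 endothelial, 7 of 8 measured adipocyte and 12 of 12 skeletal muscle markers. The leukocyte list summed to 305 to 407 with cytochalasin D, 356 to 413 with both drugs and 394 to 466 in control, and the adipocyte list to 1781 to 2458, 1953 to 2626 and 2453 to 2977. In the same order, the epithelial list summed to 154 to 257, 165 to 201 and 165 to 233. For the endothelial list the sums were 87.3 to 93.9, 91.0 to 113 and 93.8 to 108. The part of these markers in the results was not tested. The 11 smooth muscle markers, which hold Acta2, Actg2, Cnn1 and Tagln, summed to 24459 to 27159 with cytochalasin D, 10519 to 13126 with both drugs and 4107 to 6816 in control, and 2 of the 8 tested passed (Actg2 and Cnn1). Most of the sum came from Acta2 and Tagln, with means of 20609 and 4408 with cytochalasin D. Of the 11, 6 were below 16 on every array (Des, Itga8, Lmod1, Myh11, Myocd and Synpo2). Myh11, which defines smooth muscle, was between 8.12 and 8.56 on all arrays. Cnn1 met the level asked of a tested probe set mainly through its cytochalasin D arrays. The ratio of 3′ to 5′ control probe sets of Gapdh, a sign of RNA integrity, lay between 0.770 and 0.834 on every array, and the median intensity between 7.57 and 7.84. The 3′ and 5′ Actb control probe sets were less even. They had 29052 to 31444 and 17354 to 21369 with cytochalasin D, and 26597 to 28269 and 14063 to 16952 with both drugs. Control had 22066 to 23394 and 10674.5 to 14241. In each pair the Actb ratio was lower with cytochalasin D alone, and its part in the results was not tested. Of the 36 pairs of arrays, 0 were identical.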

How the data were processed

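RNA of 9 NIH 3T3 cultures was measured on Affymetrix mouse arrays, and the 6 arrays with cytochalasin D were compared. The authors deposited intensities on a linear scale, normalized, 1 per probe set and array. MAS5 and GCRMA appear, with no version, in the submitters' processing notes; which of them gave these values is not stated there. Symbols came from the platform annotation, and an update by gene identifier changed 0 of them. Probe sets with several symbols named no gene.

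From these, log2(intensity + 16) was computed, and a probe set was tested if above the 40th percentile of its array on at least 3 arrays. limma 3.58.1 (lmFit, eBayes) under R 4.3.3 was used, with 1 coefficient per group plus the replicate number, over all 9 arrays. The control arrays enter the spread and the replicate terms. Adjustment was Benjamini-Hochberg over 27010 probe sets. The number of arrays limits the precision. The code was tested on simulated data.

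The pairing comes from the replicate numbers in the titles. Deviations from group means correlated over probe sets between same-numbered cytochalasin D and double-drug arrays at r = 0.73, 0.41 and 0.76 (replicates 1, 3 and 7). Between control and cytochalasin D, r was 0.71, 0.08 and 0.65.

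Named genes were the 20 largest rises and up to 12 largest falls among called probe sets whose groups did not overlap, up to 4 members of each list by adjusted p, and 24 fixed genes, each by its brightest tested probe set. Members, lists and fixed genes were chosen with earlier results of these data known. Alternatives were other constants, filters, quantile normalization, a trended robust prior, no block, the 6 arrays alone and arrays left out. The results of 1 further list are not reported here.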

Additional observations from a re-analysis of the deposited data

How the results depend on the processing

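Counts of calls moved with nearly every choice. The cause of the moves was not tested. Without the replicate block, 70 were called, 67 higher and 3 lower, 41 of them among the 99. The 6 arrays alone gave 0 with the block (limma, smallest adjusted p 0.0806, 1466 higher and 1430 lower at an unadjusted p under 0.05) and 9 without it (7 higher, 2 lower). An added constant of 1 gave 129 (113 higher, 16 lower) and of 64 gave 59 (50 higher, 9 lower). With no filter, 45037 probe sets were tested and 9 called (9 higher, 0 lower), and at the 60th percentile 18143 were tested and 309 called (284 higher, 25 lower). Quantile normalization gave 123 (97 higher, 26 lower), and a trended robust prior 184 (174 higher, 10 lower). Leaving out 1 array, or all 3 arrays of 1 number, gave 0 to 86 calls, 0 to 78 higher and 0 to 8 lower. With limma and all arrays of replicate 1, 3 or 7 left out, 0 were called (2911, 2152 and 2594 at an unadjusted p under 0.05). With 3 arrays a group, the number of arrays limits the precision.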
